A study of Gasterosteus aculeatus with 79 samples.

Results

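The gene ndufa7 (Ensembl gene ENSGACG00000008635) codes for a subunit of respiratory complex I, and its counts were followed through the brains of male threespined stickleback (Gasterosteus aculeatus) during paternal care. It was 1 of the 22456 genes of the count files, was found in them by this identifier, and had reads in all 79 libraries. It was chosen by its telencephalon log2 fold changes in males with a nest and at early hatching, which had stood out in earlier results of these data, so the stage comparisons in telencephalon are given as a description with no test. The counts in diencephalon were not used for that choice, but they come from the same males.

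RNA was sequenced from the diencephalon (39 libraries) and the telencephalon (40 libraries) of 40 wild-caught adult males of a freshwater population, with 1 library from each dissected region of a male and 5 males in each of 8 groups. The males of the 5 stages, called caring males below although the first of them had no offspring yet, had a nest and no mating (nest), eggs on day 4 after fertilization (eggs), or a clutch at the start of hatching (early hatching, 9 a.m.), in the middle of it (mid hatching, 1 p.m.) or at its end (late hatching, 5 p.m.) on day 5. Nest, eggs and early hatching males, all sampled at 9 a.m., share 1 group of control males from that hour, and mid and late hatching males each have controls of their own hour. The control males were mature and had no nest, so the nest, the mating and the brood are not separated by a control of each. The diencephalon of 1 control male of 1 p.m. (male 94) had no library, which leaves 4 there. Males are named by the number in their library labels, and each library is a separate animal within a region.

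Complex I (NADH:ubiquinone oxidoreductase) is the entry point of electrons from NADH into the respiratory chain. It sits in the inner mitochondrial membrane, passes the electrons to ubiquinone and pumps protons, and the resulting gradient drives ATP synthase. Its core subunits carry out the reaction and are conserved from bacteria, while accessory subunits such as NDUFA7, a small nuclear-encoded protein at the matrix arm studied mainly in mammals, surround the core. Neurons rely heavily on this pathway for the ATP that ion pumping and synaptic transmission use.

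Libraries held 15839679 to 37371744 counts in genes (median 20788830), and ndufa7 had 347 to 1113 of them. Levels are given as counts-per-million (CPM) values, with library sizes scaled by the trimmed mean of M-values (TMM) within a region. Between 38.4% and 48.2% of the aligned reads of a diencephalon library, and 39.2% to 45.4% in telencephalon, lay outside annotated genes. One feature of the sequencing followed the groups. In their names, 48 of the 50 libraries of caring males carry a lane digit, read here as a single lane. All 29 control libraries carry the letter M in its place, read here as multiple lanes. The 2 exceptions are both regions of male 65, a late hatching male. Lane and condition therefore cannot be told apart except through this 1 animal, and every comparison with controls below carries that limit.

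In telencephalon, the region on which the gene was chosen, every male with a nest, with eggs or at early hatching had more ndufa7 than every control male of 9 a.m. Nest males had 28.5, 28.7, 33.5, 33.96 and 37.1 CPM. Males with eggs had 24.8, 25.9, 29.5, 33.8 and 41.5 CPM, and males at early hatching had 29.1, 29.8, 30.8, 39.3 and 40.3 CPM. The 9 a.m. controls had 18.3, 19.3, 21.3, 21.3 and 22.5 CPM, a narrow range below all 15 of those males. Over their controls the fitted log2 fold changes were 0.65 (SE 0.13) for nest, 0.60 (SE 0.13) for eggs and 0.72 (SE 0.13) for early hatching. Groups that did not overlap, with the stage higher, were seen for 2.75% of the 18397 genes tested at nest, 0.929% at eggs and 0.832% at early hatching. These comparisons are the ones that led to the choice, or share its controls, and nothing is read from them.

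Later on the day of hatching the telencephalon levels of caring and control males ran into each other. Mid hatching males had 23.5, 24.5, 26.0, 26.6 and 29.5 CPM, against 19.2, 20.1, 24.5, 24.6 and 28.1 CPM in the 1 p.m. controls, and only 1 of the 5 lay above all controls (log2 fold change 0.16, SE 0.13, where 0.37% of genes did not overlap, with the stage higher). Late hatching males had 20.5, 29.0, 30.0, 31.6 and 34.7 CPM, against 20.3, 20.4, 21.0, 21.3 and 25.004 CPM in the 5 p.m. controls (log2 fold change 0.44, SE 0.13, where 2.15% of genes did not overlap, with the stage higher). The late hatching male inside the control range was male 65, and the other 4 were above all 5 controls. Without male 65 the late hatching change was 0.52.

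**Figure D1:**
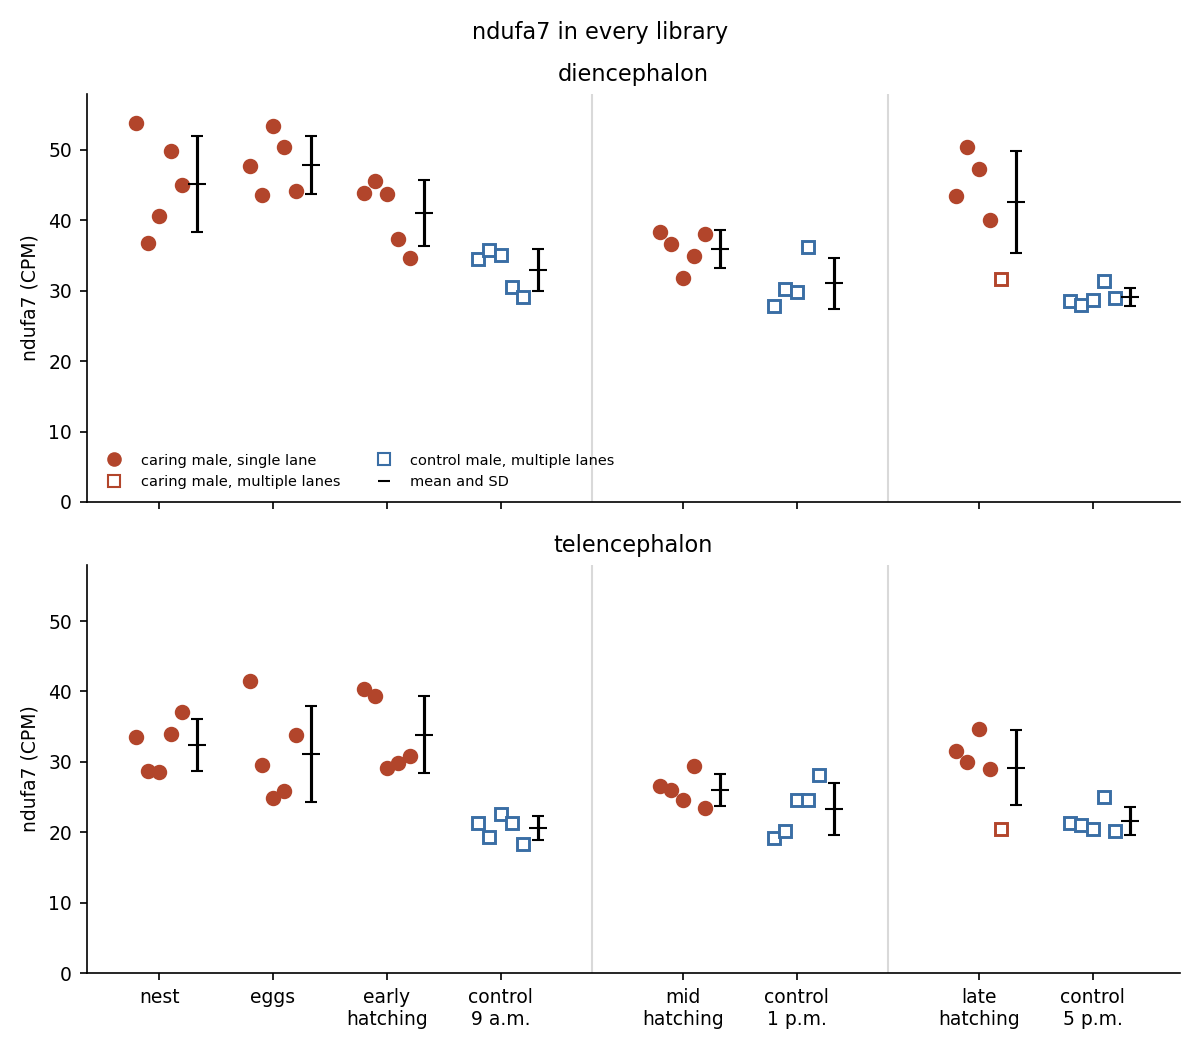
Level of ndufa7 (CPM, vertical axis) in each library of diencephalon (upper panel) and telencephalon (lower panel) by group, each stage left of the control group of its hour. Points are males, filled circles single-lane and open squares multiple-lane libraries, and bars give the mean and SD. The open square among the late hatching males is male 65, at 31.7 CPM in diencephalon and 20.5 CPM in telencephalon.

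In diencephalon, which had no part in the choice, ndufa7 was called higher in late hatching males than in their controls, and higher in the mean over the 5 stages. Late hatching males had 31.7, 40.04, 43.5, 47.3 and 50.4 CPM, against 28.0, 28.6, 28.7, 28.9 and 31.4 CPM in the 5 p.m. controls. The 2 groups did not overlap, but male 65 stood only just above the highest control while the other 4 were well clear of it. The log2 fold change was 0.55 (SE 0.10, a fold of 1.46, edgeR quasi-likelihood test, adjusted p = 0.00285 over 18609 genes). This contrast called 2.82% of genes in either direction, and 4.01% of genes did not overlap with the stage higher, so ndufa7 is 1 of many genes that differ there. Without male 65 the change was 0.64 (adjusted p = 0.00127). Without male 15 it was 0.50 (adjusted p = 0.0133) and without male 32 it was 0.53 (adjusted p = 0.0106), both above the 0.01 threshold used here, so the call was lost without either of the 2 highest males.

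The other stages were also above their controls in diencephalon, by amounts that did not reach the 0.01 threshold. Males with eggs had 43.6, 44.1, 47.7, 50.4 and 53.4 CPM, against 29.1, 30.5, 34.5, 35.1 and 35.7 CPM in the 9 a.m. controls, the highest stage mean of the region (log2 fold change 0.54, SE 0.10, edgeR quasi-likelihood, adjusted p = 0.0194). Nest males had 36.8, 40.6, 45.0, 49.8 and 53.8 CPM, which did not overlap the same controls either (log2 fold change 0.45, SE 0.10, edgeR quasi-likelihood, adjusted p = 0.0409). In these contrasts 0.0322% (eggs) and 0.0537% (nest) of genes were called, and 1.59% and 1.61% did not overlap with the stage higher. Thus ndufa7 was among the genes that separated completely from these controls, yet with all genes corrected for together it was not called.

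The changes were smaller at early and mid hatching, where no gene at all was called. Early hatching males had 34.7, 37.4, 43.7, 43.9 and 45.6 CPM, of which 4 of 5 were above the highest 9 a.m. control (log2 fold change 0.31, SE 0.10, edgeR quasi-likelihood, adjusted p = 0.734). Mid hatching males had 31.8, 34.9, 36.7, 38.0 and 38.4 CPM, against 27.9, 29.9, 30.2 and 36.3 CPM in the 4 controls of 1 p.m., with 3 of 5 above the highest control (log2 fold change 0.21, SE 0.11, edgeR quasi-likelihood, adjusted p = 0.399). The 0 calls at each of these stages (0% called) came from the same edgeR quasi-likelihood test. With an unadjusted p under 0.05 it had 1170 genes (6.29%) at early hatching and 2581 genes (13.9%) at mid hatching. These shares include the genes that reach this level by chance. By the same edgeR quasi-likelihood test ndufa7 had an unadjusted p of 0.004878 at early hatching and 0.06487 at mid hatching. At early hatching 0.865%, and at mid hatching 2.34%, of genes did not overlap with the stage higher. The 95% interval of the mid hatching change ran between -0.01 and 0.43 on the log2 scale.

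Averaged over the 5 stages, ndufa7 in diencephalon was 1.33 times as high in caring males as in their controls (log2 fold change 0.41, SE 0.061, edgeR quasi-likelihood, adjusted p = 0.000364), where 4.84% of genes were called in either direction. The 25 caring males had 31.7 to 53.8 CPM (median 43.6) and the 14 control males had 27.9 to 36.3 CPM (median 30.0). Of the 24 caring males with single-lane libraries, 21 were above every control male of any hour, and the lowest, male 81, had 31.8 CPM. How many other genes divide the males in this way was not counted. Male 65, the only caring male with multiple-lane libraries, had 31.7 CPM and lay within the range of all control males. Without male 65 the mean change was 0.43 (edgeR quasi-likelihood, adjusted p = 4.77e-05). When the share of reads outside genes, which was 42.0% to 48.1% in these 24 diencephalon libraries and 38.4% to 45.9% in the 14 control libraries, was entered as a covariate, the mean change was 0.44 (SE 0.079) and was no longer called (edgeR quasi-likelihood, adjusted p = 0.0204). The late hatching change was then 0.60 (SE 0.14, adjusted p = 0.211). There the shares themselves, 43.0% to 46.4% in late hatching and 38.4% to 40.5% in control males, did not overlap. Without the covariate the sizes were 0.41 and 0.55. With it the unadjusted edgeR quasi-likelihood p was 3.065e-06 for the mean and 0.0001472 at late hatching. The share of all genes called with the covariate is not given here. At late hatching the size with the covariate rests on the slope within groups, so share and stage cannot be told apart there.

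**Figure D2:**
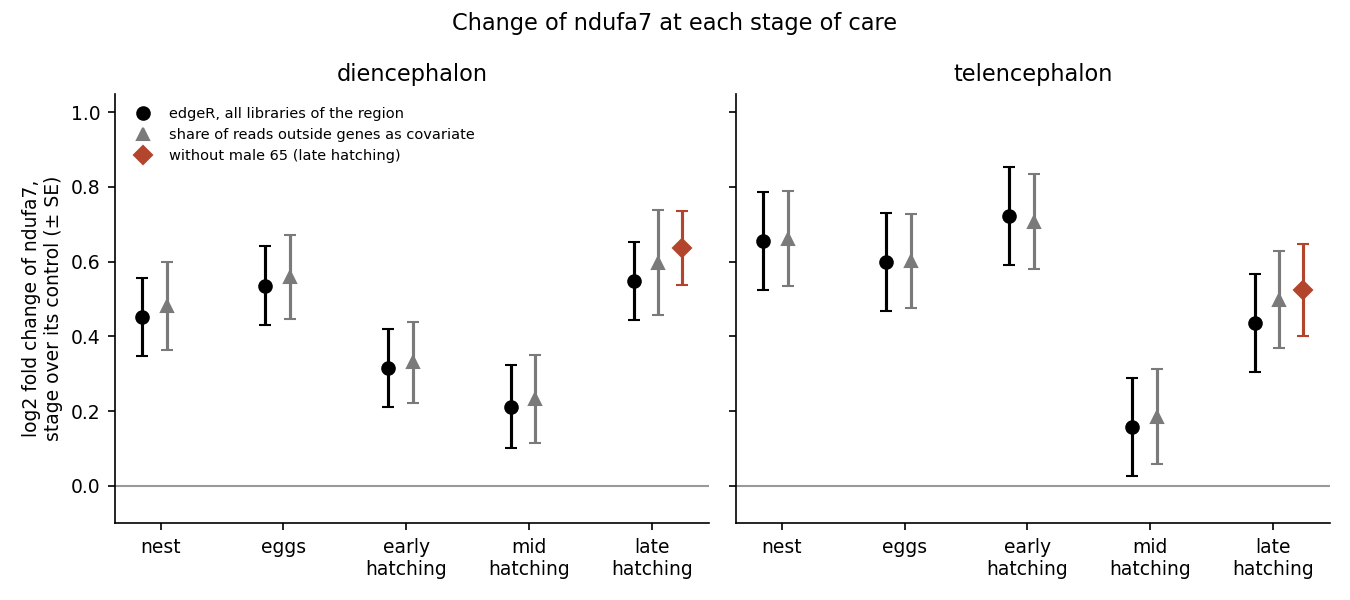
Log2 fold change of ndufa7 (vertical axis, ± SE) at each stage over the control of its hour in diencephalon (left) and telencephalon (right), with edgeR over all libraries of the region (circles), with that share of reads as a covariate (triangles) and, for late hatching, without male 65 (diamonds). All estimates are above 0, lowest at mid hatching in both regions (0.21 in diencephalon and 0.16 in telencephalon).

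Differences between the stages themselves were not called in diencephalon. Early hatching against eggs gave a log2 difference of -0.22 (SE 0.10), mid against early hatching -0.19 (SE 0.10) and late against mid hatching 0.24 (SE 0.10), with edgeR quasi-likelihood adjusted p-values of 0.616, 0.883 and 0.615, in contrasts that called 0%, 0.00537% and 0% of genes. The change at mid hatching lay 0.25 below the mean change of the other 4 stages (log2 difference -0.25, SE 0.13, edgeR quasi-likelihood, adjusted p = 0.68, 0% of genes called). In telencephalon the same quantity was -0.44 (SE 0.16), given with no test because the other stages include those on which the gene was chosen.

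Ordered by mean, the groups ran in diencephalon as eggs (47.8 ± 4.15 CPM), nest (45.2 ± 6.85), late hatching (42.6 ± 7.23), early hatching (41.1 ± 4.73), mid hatching (36.0 ± 2.7), controls of 9 a.m. (33.0 ± 2.99), of 1 p.m. (31.1 ± 3.62, n = 4) and of 5 p.m. (29.1 ± 1.31; SD, n = 5 unless given). Of the 7 steps between neighbours, only that between early and mid hatching, 5.1 CPM, exceeded the larger SD of its 2 groups. In telencephalon the order was early hatching (33.9 ± 5.46 CPM), nest (32.4 ± 3.69), eggs (31.1 ± 6.77), late hatching (29.2 ± 5.32), mid hatching (26.0 ± 2.29), controls of 1 p.m. (23.3 ± 3.64), of 5 p.m. (21.6 ± 1.96) and of 9 a.m. (20.6 ± 1.7; SD, n = 5 each), and no step exceeded the larger SD. In diencephalon all 5 stages came before all 3 control groups. The step that divides them, from mid hatching to the 9 a.m. controls, was 2.96 CPM, within the larger SD of 2.99. How many other genes have their groups in such an order was not counted. The same order in telencephalon includes nest and early hatching, on which the gene was chosen, and is not a separate result. The 8 groups accounted for 72.9% of the variance of ndufa7 log2 CPM in diencephalon and for 64.8% in telencephalon. The median over all genes was 25.6% in diencephalon. The telencephalon share includes the values on which the gene was chosen, and is not set against other genes.

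Among control males, no difference between hours of the day passed the test. In diencephalon the 5 p.m. controls were 0.18 below those of 9 a.m. on the log2 scale (log2 difference -0.18, SE 0.10, edgeR quasi-likelihood, adjusted p = 0.461, 0.0161% of genes called), and the 1 p.m. controls differed from them by -0.09 (SE 0.11, adjusted p = 0.945, 0% of genes called). In telencephalon the corresponding values were 0.07 (SE 0.13) and 0.18 (SE 0.13), with no test. The control groups of both regions overlapped one another.

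Between the brain regions ndufa7 differed in every male. With both regions scaled together, it was higher in the diencephalon than in the telencephalon of the same animal in 25 of 25 caring males and in 14 of 14 control males. How many other genes were higher in diencephalon in every male was not counted. The fit behind the p-values that follow did not pair the 2 libraries of a male. Caring males had 31.1 to 53.3 CPM in diencephalon (median 43.3), against 20.5 to 41.7 CPM in telencephalon (median 29.9), a log2 difference of 0.45 (SE 0.053, a fold of 1.37, edgeR quasi-likelihood over 18799 genes, adjusted p = 1.3e-11). Control males had 27.3 to 36.2 CPM in diencephalon (median 29.3), against 18.9 to 27.0 CPM in telencephalon (median 21.7), a log2 difference of 0.47 (SE 0.070, a fold of 1.38, edgeR quasi-likelihood, adjusted p = 3.49e-08). In control males the ranges of the 2 regions came close but did not overlap under this scaling. With each region scaled alone they did overlap, with a lowest diencephalon value of 27.9 CPM and a highest telencephalon value of 28.1 CPM. How many other genes separate in this way was not counted. Higher calls in diencephalon were made for 27.4% of genes in caring and 18.3% in control males, and calls in either direction for 54.2% and 38.8%, so that a regional difference is common among genes. The level in diencephalon was 1.07 to 2.07 times that in telencephalon of the same caring male (median 1.35) and 1.13 to 1.86 times in control males (median 1.36). The difference between the 2 sets of males was not tested. Both regional tests include telencephalon values behind the choice of the gene, those of nest and early hatching males and of the 9 a.m. controls. They are therefore not free of that choice. The ratio was 1.36 to 1.86 in the 9 a.m. controls and 1.13 to 1.49 in the other control males. Both libraries of a caring male other than male 65 carry the single-lane mark, and both of a control male the multiple-lane mark. The mark thus does not divide the regions, but whether the 2 libraries of a male ran on the same lanes was not examined. In bulk tissue, more RNA of ndufa7 per cell and more cells that carry it cannot be told apart.

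**Figure D3:**
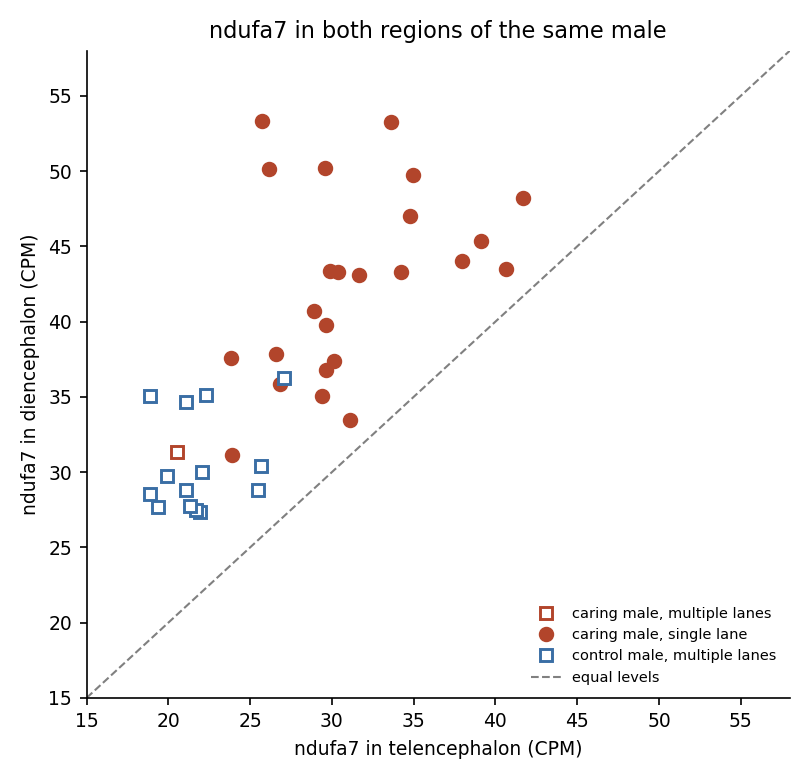
Level of ndufa7 in diencephalon (vertical axis, CPM) against telencephalon (horizontal axis, CPM) of the same male, with both regions scaled together. The dashed line marks equal levels. All 39 males with both libraries lie above the line, caring males in orange-red and control males in blue.

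A male's deviation from his group mean tended to have the same sign in both regions, in 28 of 39 males. Pearson's r of the deviations was 0.50 and Spearman's rho 0.45 (39 males, permutation test within groups, two-sided, p = 0.00777 and 0.0127, adjusted over 5 relations, 0.0388 and 0.0636). Without the 2 males farthest from the telencephalon median r was 0.427. The relation leaned on 1 animal: without male 65, the late hatching male low in both regions, r was 0.353 (permutation p = 0.0581). Among the 24 males with single-lane libraries r was 0.269, and among the 15 with multiple-lane libraries, male 65 included, it was 0.84. Among the 25 caring males it was 0.444 (rho 0.362), and among the 14 control males 0.714 (rho 0.534). None of the 4 relations with library measures passed a threshold of 0.05. The deviations of ndufa7 gave r of -0.111 with the share of reads outside genes and -0.217 with the sum of gene counts in diencephalon, and -0.319 and 0.082 in telencephalon, with rho of -0.109, -0.175, -0.238 and -0.0233 (permutation tests, adjusted p of 0.199 or more for r and 0.38 or more for rho). Without the 2 libraries farthest from the median, these r were -0.0691, -0.136, -0.226 and 0.0575.

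**Figure D4:**
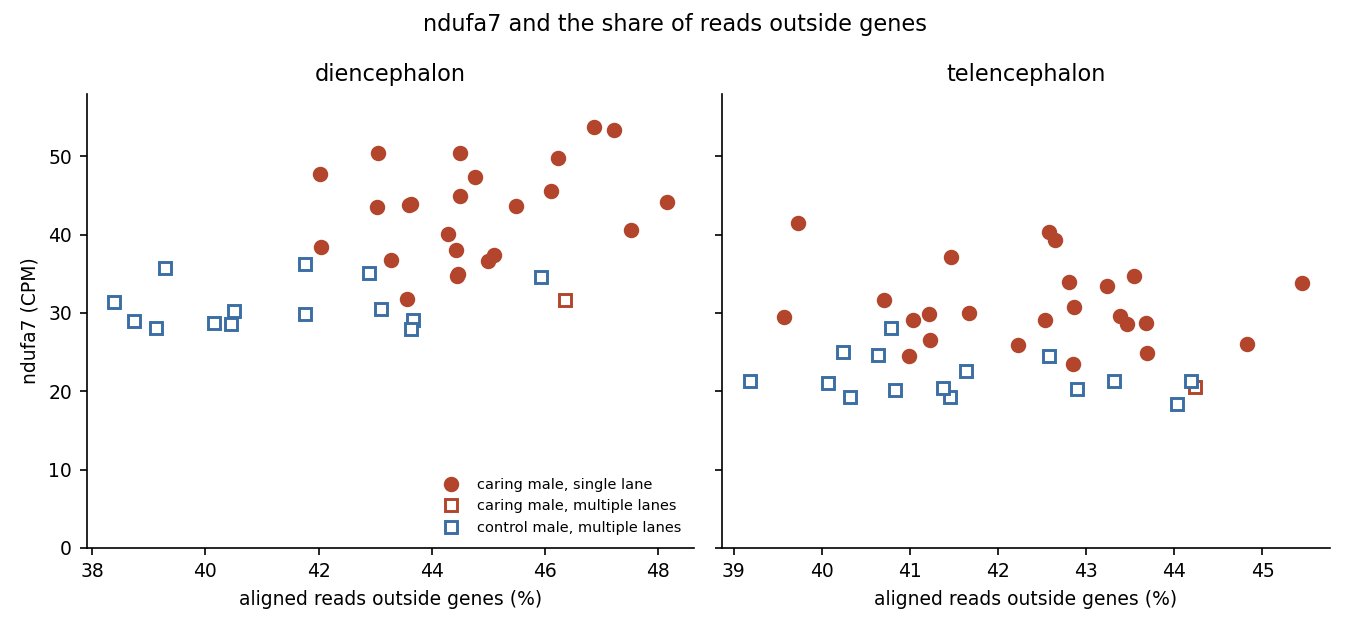
Level of ndufa7 (vertical axis, CPM) against the share of aligned reads outside genes (horizontal axis, percent) in diencephalon (left) and telencephalon (right). Filled circles are caring males with single-lane libraries, the open orange-red square is male 65 and open blue squares are control males. In diencephalon male 65 has 46.4% of reads outside genes, near the top of the range, and 31.7 CPM of ndufa7.

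Dissected regions can carry neighbouring tissue, so marker genes of other cells were summed in each library. These sums are CPM of all counts in genes, without the TMM scaling used for ndufa7. Identifiers were paired with 7 of 9 pituitary, 9 of 10 photoreceptor, 6 of 10 skeletal muscle, 5 of 6 oligodendrocyte and 1 of 6 microglia markers, and none of these paired genes was at 0 in all libraries of a region. In diencephalon the pituitary sum was 2.41 to 3700.0 CPM in caring and 3.39 to 4880.0 CPM in control males, and in telencephalon 0.836 to 409 CPM in caring and 0.974 to 18600.0 CPM in control males, so that single libraries held much pituitary RNA. The oligodendrocyte sum was steadier, at 495 to 827 CPM in caring and 553 to 1070.0 CPM in control males in diencephalon. In all 50 combinations of list, region and stage the summed levels of the stage and its control overlapped. Their part in the ndufa7 differences was not tested. No marker of telencephalon or diencephalon could be paired with an identifier, so the region labels were not checked that way.

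Several genes followed ndufa7 closely from library to library. Over the 39 diencephalon libraries the closest were ENSGACG00000020909 (Pearson's r of log2 CPM 0.86) and ENSGACG00000019273 (r 0.854), and over the 40 telencephalon libraries ENSGACG00000000016 (r 0.864) and ENSGACG00000009532 (r 0.832). None of the 5 closest in either region is paired with a name in the tables used, and ENSGACG00000020909 was among the 5 in both (r 0.81 in telencephalon). The first 2 had 154 and 22.5 CPM in caring and 130 and 18.7 CPM in control males in diencephalon, and the last 2 had 210 and 120 CPM in caring and 173 and 105 CPM in control males in telencephalon. Once each library was set against its group mean, r for these 4 was 0.671, 0.732, 0.733 and 0.756, in the same libraries on which they were picked as closest. The libraries share the groups, the lanes and the scaling, and 214 genes in diencephalon and 72 in telencephalon had r above 0.7, while 369 and 70 had r below -0.7. Set against the group means, 5 genes in diencephalon and 11 in telencephalon had r above 0.7, and 0 and 6 had r below -0.7.

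The genes that carry a name come from the study's tables of genes it found differentially expressed, in these or its other data. A gene that differs between caring and control males can follow ndufa7 across libraries through that difference alone. Among genes that do carry a name, looked up after the values were seen, taf13 came first in both regions (r 0.80 in diencephalon and 0.779 in telencephalon). Its product is a subunit of TFIID, the general factor that places RNA polymerase II at promoters. It averaged 91.1 CPM in caring and 71.7 CPM in control males in diencephalon, and 90.2 and 74.1 CPM in telencephalon. In diencephalon it was followed by DCTN6 (r 0.677), a subunit of the dynactin complex that works with the motor dynein, by adcyap1a (r 0.65), which codes for the neuropeptide PACAP, by bdnf (r 0.621), a neurotrophin of synapses and neuronal survival, and by CCRN4L (r 0.609), the gene of nocturnin. In telencephalon it was followed by dusp5 (r 0.711), a phosphatase that acts on the kinase ERK, by chn1 (r 0.708), a Rac GTPase-activating protein of axon guidance, by GPR26 (r 0.627), an orphan G protein-coupled receptor, and by rftn2 (r 0.616), a raftlin of membrane rafts. Within groups, r for taf13 was 0.507 in diencephalon and 0.571 in telencephalon. It was 0.239 for DCTN6, 0.222 for adcyap1a, 0.315 for bdnf and 0.206 for CCRN4L in diencephalon, and 0.38 for dusp5, 0.291 for chn1, 0.588 for GPR26 and 0.572 for rftn2 in telencephalon.

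Other genes of the respiratory chain could not be set beside ndufa7: of the complex I subunits and assembly factors listed for the comparison, only ndufa7 itself is paired with an identifier, and complexes II to IV and ATP synthase had no paired gene. Of the named genes, 4 have a description that mentions mitochondria, found after the names were seen. The names, that of ndufa7 included, come from the study's tables of genes it found differentially expressed, in these or its other data. A call among these 4 is therefore not a separate result, and the share called over all genes is not a like background for them. In the mean over the 5 stages in diencephalon, atp5s, whose mammalian product is a factor associated with ATP synthase, was higher in caring males (log2 fold change 0.24, SE 0.060, edgeR quasi-likelihood, adjusted p = 0.0075, in a contrast that called 4.84% of genes). The mitochondrial ribosomal protein gene mrps33 (0.12, SE 0.063, adjusted p = 0.19), the fission gene MTFP1 (0.03, SE 0.18, adjusted p = 0.934) and CKMT2, a mitochondrial creatine kinase typical of muscle (-0.66, SE 0.61, adjusted p = 0.499), were not called there. At no single stage in diencephalon was atp5s called (lowest edgeR quasi-likelihood adjusted p = 0.064, at late hatching). In telencephalon CKMT2 was lower in caring males (log2 fold change -3.23, SE 0.70, edgeR quasi-likelihood, adjusted p = 0.00911, in a contrast that called 0.609% of genes), while atp5s (0.15, SE 0.075, adjusted p = 0.289), mrps33 (0.05, SE 0.073, adjusted p = 0.792) and MTFP1 (0.01, SE 0.17, adjusted p = 0.989) were not called. The skeletal muscle marker sum reached 1650.0 CPM in a telencephalon library of a control male, against at most 90.9 CPM in caring males, and its part in the CKMT2 value was not tested.

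In the RefSeq annotation of a later stickleback assembly (fGasAcu3.hap1.1), matched by symbol, ndufa7 lies between mast3b and LOC120824335. It overlaps the span of LOC120824337, a long non-coding RNA gene, whose strand was not looked up. The methods name a stranded library kit and default program settings, with no strand option spelled out for the counting. By default HTSeq counts only reads on the strand of the gene, whereas reads of this kit lie on the opposite one. Counting that way would leave few reads in genes, yet only 38.4% to 48.2% of aligned reads lay outside them. The strand setting behind the counts is thus not fixed by the methods, and it was not tested. Reads of such an overlapping transcript may therefore be among those of ndufa7.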

How the data were processed

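Gene counts of 79 libraries were the deposited values; they are raw read counts per Ensembl gene, made by the authors with CASAVA 1.8.2, TopHat2 2.0.8 and HTSeq 0.6.1 on a repeat-masked Ensembl stickleback genome, with reads in more than 1 gene left out. Male numbers and lanes were read from the library labels. The genes that reached 0.5 CPM in 5 or more of a region's libraries entered edgeR 4.0.16 (R 4.3.3; TMM, quasi-likelihood, Benjamini-Hochberg over all genes, threshold 0.01), each region fitted alone with 8 groups, and both regions together with 16 groups for the regional difference. Log2 CPM used a prior count of 2. No 2 libraries held identical counts, and the fits were tested on simulated data. Reads assigned to no gene were left out of library sizes.

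Same-numbered libraries of the regions come from 1 animal, and male was a replicate block in an alternative. Other alternatives were another scaling, no filter, DESeq2 1.42.0, a likelihood ratio test, only the groups compared, a covariate, exact permutation tests and each male left out. Relations were tested with 100000 permutations within groups. The gene, the lists and the tests were chosen with earlier results of these data known. The genes named were ndufa7, complex I subunits (no other could be paired with an identifier, so their count is not analysed here), its neighbours, and the 5 genes with the highest r with ndufa7 in each region, at most 2 unnamed identifiers of them printed; others were chosen after their values were seen. Names came from the study's own tables of genes it found differentially expressed (681 identifiers), which were held in part. No sequence is shown.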

Additional observations from a re-analysis of the deposited data

Results flagged for a closer look

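Of the 16 groups checked for a sample far from the others, 2 stood out, both in the 5 p.m. controls and both through male 95. Its ndufa7 level was 31.4 CPM in diencephalon and 25.004 CPM in telencephalon, the highest of 5 males each time, while the other 4 lay within 28.0 to 28.9 CPM and 20.3 to 21.3 CPM. The gap took 0.726 and 0.789 of the group's range, above the critical value of 0.71. Chance flags about 1 in 20 groups. Without male 95 the late hatching change in diencephalon was 0.58 (edgeR quasi-likelihood, adjusted p = 0.00557).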

How the results depend on the processing

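Every one of 344 alternative values kept the direction of its result. They include telencephalon values from the contrasts behind the choice of the gene. They also include rows at the 0.05 threshold that reuse the main value and cannot change direction. In diencephalon the late hatching change was no longer called when the share of reads outside genes was a covariate (0.60, adjusted p = 0.211), when only the 2 groups entered the edgeR fit (0.58, adjusted p = 0.0202) or under the exact permutation test (0.53, adjusted p = 0.0132 over 5 contrasts, with an unadjusted p of 0.00794, the smallest that 5 against 5 males allow). The late hatching values are already at that smallest p, so by themselves they could not bring the adjusted p of this test under 0.01. Leaving out 1 male gave a late hatching change of 0.50 to 0.64. The mean over 5 stages lost its call under the covariate (0.44, adjusted p = 0.0204) and gave 0.39 to 0.44 with 1 male left out. The nest change was called with DESeq2 (0.46, adjusted p = 0.00912) and at an adjusted p under 0.05 (0.45), and the eggs change with DESeq2 (0.55, adjusted p = 0.000868), with edgeR's likelihood ratio test (0.54, adjusted p = 0.00259) and at 0.05 (0.54). The same-male correlation was 0.269 (permutation p = 0.222) within single-lane libraries, a split chosen after seeing the data, and 0.353 to 0.59 with 1 male left out. With male as a replicate block, the regional log2 difference was 0.46 in caring and 0.48 in control males (edgeR quasi-likelihood, adjusted p = 5.12e-13 and 8.06e-10), and the block changed no call. These differences also include telencephalon values behind the choice of the gene. In telencephalon the 5 stage changes moved by less than 1 SD under every alternative run, and leaving out 1 male gave 0.10 to 0.23 at mid hatching. The cause of these shifts was not tested. Libraries held 347 to 1113 counts of ndufa7. Its fitted variation between males beyond counting was 0.117 of the mean in diencephalon and 0.146 in telencephalon. How far depth limits the precision was not tested.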
